A study of Mus musculus with 8 samples.

Results

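The enzymes of mitochondrial beta-oxidation were examined after overexpression of p21, a cyclin-dependent kinase inhibitor, in the mouse tibialis anterior, which lifts the foot. The list holds 10 genes, namely Acadvl, Acadl, Acadm, Acads, Hadha, Hadhb, Hadh, Decr1, Acaa2 and Etfdh, and every probe whose platform gene symbol is a listed name was taken. In this way 9 of the 10 genes were found, with 18 of the 25697 probes on the array. Hadha, for the alpha subunit of the trifunctional protein, was not found under its symbol or its Entrez number and was not analysed here. The p21 group held muscles transfected with a plasmid for p21 and the control group held muscles transfected with a control plasmid, with 4 arrays each. The mice were C57BL/6 males, 8 weeks old, and the muscles were harvested 7 days after transfection in both groups. The labels name neither the plasmid's promoter nor the share of fibres that took it up, and the whole muscle was profiled, so transfected fibres, other fibres and non-muscle cells were read together. The labels also do not say which muscles share a mouse. The main p-values treat the arrays as independent, which muscles of the same mouse would not be.

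Beta-oxidation shortens an activated fatty acid in the mitochondrial matrix by repeated rounds of dehydrogenation, hydration, a further dehydrogenation and thiolytic cleavage. The acyl-CoA dehydrogenases carry out the opening step and are specialised by chain length. The trifunctional protein, built from Hadha and Hadhb, completes the round on long chains, while separate matrix enzymes, Hadh and Acaa2 among them, act on shorter ones. Electrons from the opening step reach the respiratory chain through the electron transfer flavoprotein and its dehydrogenase Etfdh, and unsaturated chains need auxiliary enzymes such as Decr1. In muscle the pathway is typical of mitochondria-rich fibres, and its genes are known targets of the PPAR and estrogen-related receptors and their coactivator PGC-1alpha.

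Values are log2 intensities, which had equal distributions on all 8 arrays (lowest value 8.13, median 8.39, highest 15.27). For each gene the probe of highest mean intensity was used, changes are log2 differences (p21 minus control) ± SE, and a probe was called at limma adjusted p under 0.05 over the whole array. Cdkn1a, the gene of p21, read 11.31, 11.72, 11.25 and 11.50 in p21 replicates 1 to 4, against 9.83, 9.92, 10.27 and 10.02 in control replicates 1 to 4, and every p21 array exceeded every control array. Muscle markers stood near the top of the scale, with Ckm, the muscle creatine kinase, at 15.02 ± 0.03 in p21 muscles and 15.08 ± 0.01 in control muscles, and Acta1, skeletal alpha-actin, at 15.07 ± 0.02 and 15.01 ± 0.09 in p21 and control muscles (SD, n = 4 each). All 9 measured members had a brightest probe above the array median, but that of Hadh lay close to it. The other Hadh probe and the dimmest probes of Acadl and Etfdh lay below the median, near the floor of the scale, where changes are compressed.

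The promoters of Acadvl, Acadm and Etfdh, all called lower, are shown with that of Acads, which was not called. The sequences are RefSeq's, build GRCm38.p6, 5′ to 3′ on the gene's strand, in windows of 300 bases around the annotated start. Capitals mark every match, on either strand, to the nuclear receptor hexamer AGGTCA or to the NRF1 core GCATGCGC. The Acadvl window is chr11:70015379-70015678, the Acadm window chr3:153944594-153944893, the Etfdh window chr3:79628718-79629017 and the Acads window chr5:115119297-115119596, all on the minus strand.
Acadvl: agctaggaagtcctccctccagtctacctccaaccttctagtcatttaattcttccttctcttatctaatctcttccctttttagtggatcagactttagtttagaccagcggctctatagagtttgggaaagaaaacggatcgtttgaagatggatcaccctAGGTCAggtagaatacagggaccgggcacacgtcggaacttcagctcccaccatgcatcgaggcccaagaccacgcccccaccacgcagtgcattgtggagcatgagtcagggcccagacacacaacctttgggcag
Acadm: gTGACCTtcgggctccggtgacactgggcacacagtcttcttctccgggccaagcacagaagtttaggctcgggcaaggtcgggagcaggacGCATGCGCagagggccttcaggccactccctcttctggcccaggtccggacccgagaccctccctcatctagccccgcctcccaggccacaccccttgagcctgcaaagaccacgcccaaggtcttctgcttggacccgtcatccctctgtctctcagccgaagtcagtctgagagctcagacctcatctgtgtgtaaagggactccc
Etfdh: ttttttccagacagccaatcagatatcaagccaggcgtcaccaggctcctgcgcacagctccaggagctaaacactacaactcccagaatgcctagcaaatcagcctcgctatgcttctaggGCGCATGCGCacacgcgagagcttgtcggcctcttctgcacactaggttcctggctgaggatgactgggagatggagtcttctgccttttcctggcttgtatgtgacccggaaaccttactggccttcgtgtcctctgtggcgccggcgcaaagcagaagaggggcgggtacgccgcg
Acads: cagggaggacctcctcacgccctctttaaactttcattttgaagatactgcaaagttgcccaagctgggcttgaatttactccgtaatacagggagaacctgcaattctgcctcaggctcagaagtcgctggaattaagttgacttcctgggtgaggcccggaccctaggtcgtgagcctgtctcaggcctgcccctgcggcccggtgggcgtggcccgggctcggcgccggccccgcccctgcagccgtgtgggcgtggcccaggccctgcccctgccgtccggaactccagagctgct

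The Acadvl window held the hexamer at position −87 from the start, and the Acadm window held it on the opposite strand at −249. The NRF1 core stood at −158 in Acadm, and in Etfdh at −128 and −126 on opposite strands, where the matches overlap. The Acads window held neither, and the same was true of the Acadl, Hadha, Hadhb and Hadh windows, which are not shown. Of the 8 members with a window, 2 held the hexamer and 2 the NRF1 core, while 16.3% and 2.71% of 32851 mouse promoter windows of the same length did so. The estrogen-related receptor motif TNAAGGTCA, which contains the hexamer, was in 0 of the 8 windows and in 1.28% of all windows. A direct repeat of the hexamer with 1 base between the copies, the usual PPAR element, was in 0 of the 8 and in 0.0396% of all. The member windows held from 50.67% (Acadvl) to 70.33% (Acadl) of the bases G and C, where the median of all promoters was 52.67%. Only the Acadvl window lay below that median, and the shares of all windows were not matched for base content. These matches describe letters in the windows only, and a link between them and the changes was not tested. Decr1 and Acaa2 had no window in the table. The windows of Hadha and Hadhb, which start from opposite strands of chromosome 5, shared 228 bases.

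The transcripts of the very-long-chain and medium-chain dehydrogenases, the dienoyl-CoA reductase and the flavoprotein dehydrogenase were lower in p21 muscles. Of 18 member probes, 5 were called lower, or 27.8%, where 4.35% of all probes were, and 0 were called higher (0 also at unadjusted p under 0.05), where 3.68% of all probes were. By gene, 4 of 9 were called lower, or 44.4%, against 4.79% of all 16593 genes and 8.75% of the 8927 genes whose brightest probe exceeded the array median. The change was below 0 in all 9 brightest member probes and in 17 of 18 member probes, and it was below 0 in 53.2% of all genes. The median change was −0.25 over the 9 genes and −0.004 over all genes. The p21 and control arrays did not overlap, with p21 lower, in 6 of 18 member probes (9.34% of all probes) and in 4 of 9 genes (10.3% of all genes, 17.5% of the brighter ones). In a whole-muscle sample, fewer cells of a type and less RNA per cell cannot be told apart.

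These calls depend on single arrays. Without p21 replicate 4, control replicate 1 or control replicate 2, 0 member probes were called (5, 5 and 8 at unadjusted p under 0.05, all lower). Without control replicate 3 or control replicate 4, 3 probes of 2 genes were called in each case. The loss was array-wide. All 8 arrays gave 2064 probes called, against 159 without p21 replicate 4. Without control replicates 1, 2, 3 and 4 the count was 379, 391, 1032 and 1291.

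**Figure D1:**
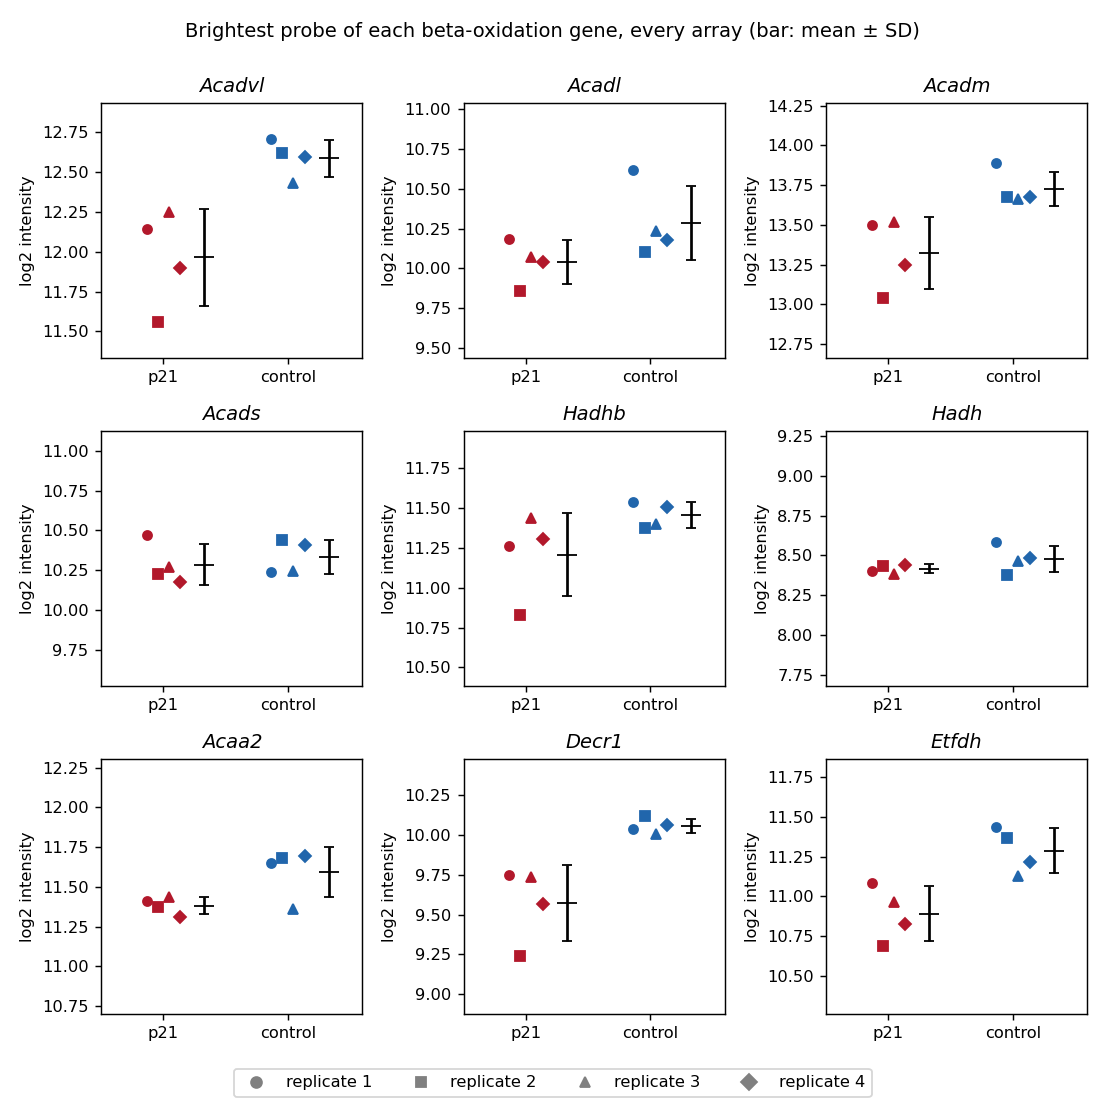
Log2 intensity of the brightest probe of each of the 9 measured members (vertical axes, each spanning the same 1.6 log2 units), with the 4 p21 arrays in red on the left and the 4 control arrays in blue on the right of each panel. Symbols give the replicate number and black bars the mean ± SD. Acadvl, Acadm, Decr1 and Etfdh show every p21 array below every control array, and p21 replicate 2 is the lowest array in 6 of the 9 panels.

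Of the 4 straight-chain acyl-CoA dehydrogenases, Acadvl and Acadm were called lower, and Acadl and Acads were not. Acadvl, which acts on very long chains at the inner membrane, read 12.14, 11.56, 12.25 and 11.90 in p21 replicates 1 to 4, against 12.71, 12.62, 12.43 and 12.59 in control replicates 1 to 4. The groups did not overlap, and p21 replicate 2 lay lowest. Its mean was 11.96 ± 0.31 in p21 muscles and 12.59 ± 0.12 in control muscles, a change of −0.62 ± 0.14 or 1.54-fold lower (adjusted p = 0.0230, exact permutation p = 0.0286, two-sided). That permutation p is the smallest that 4 against 4 arrays allow. Leaving out p21 replicate 4, control replicate 1 or control replicate 2 ended the call (adjusted p 0.0811, 0.0736 and 0.0682), while the change stayed between −0.72 and −0.49 with any 1 array left out.

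Acadm, the medium-chain dehydrogenase, fell in both of its probes. The brighter probe read 13.50, 13.04, 13.52 and 13.25 in p21 muscles, against 13.89, 13.68, 13.66 and 13.68 in control muscles. No p21 array reached the lowest control array, and the change was −0.40 ± 0.11 or 1.32-fold lower (adjusted p = 0.0417, exact permutation p = 0.0286). The dimmer probe changed by −0.56 ± 0.12 or 1.47-fold lower (adjusted p = 0.0218), with 11.20 ± 0.24 in p21 muscles and 11.75 ± 0.11 in control muscles (SD, n = 4 each). The dimmer probe lost its call without p21 replicate 4 or control replicate 1 or 2 (adjusted p 0.0811, 0.0708 and 0.0646). The brighter probe lost its call without p21 replicate 4 or any single control array (adjusted p from 0.0719 to 0.127) and without the intensity trend of the fit (0.0619).

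Acadl, the long-chain dehydrogenase, did not pass the threshold. Its brightest probe read 10.19, 9.86, 10.07 and 10.04 in p21 muscles, against 10.62, 10.10, 10.24 and 10.18 in control muscles. Of the p21 arrays, 3 lay below all controls and replicate 1 lay within their range, and the change was −0.25 ± 0.12 (adjusted p = 0.233, exact permutation p = 0.0857). The next Acadl probe gave −0.17 ± 0.07 (adjusted p = 0.184), and the probe near the floor gave 0.03 ± 0.02, the single positive change among the member probes.

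Acads, the short-chain dehydrogenase, showed little difference. It read 10.47, 10.22, 10.27 and 10.18 in p21 muscles, against 10.24, 10.44, 10.24 and 10.41 in control muscles. The groups were intermixed, with a change of −0.05 ± 0.09 (adjusted p = 0.821), and the other Acads probe gave −0.01 ± 0.06. For this gene, p21 replicate 1 was the highest of the 8 arrays, while p21 replicate 4 was the lowest.

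Whether these dehydrogenases differed in the size of their change was tested on the difference between their log2 values within each array, for 6 pairs. The change of Acadvl was more negative than that of Acads by −0.58 ± 0.15 and than that of Acadm by −0.22 ± 0.06, with no overlap between the groups in either difference (exact permutation p = 0.0286 each, 0.0857 adjusted over the 6 pairs). For Acadm this rests on the brighter probe. The dimmer Acadm probe, at −0.56 ± 0.12, lay nearer the −0.62 ± 0.14 of Acadvl and was not tested in the pairs. Acadvl differed from Acadl by −0.38 ± 0.14 and Acadm from Acads by −0.35 ± 0.13 (p = 0.0571 each, also 0.0857 after adjustment in the exact permutation test). The differences of Acadl from Acadm (0.15 ± 0.09) and from Acads (−0.20 ± 0.17) had adjusted p of 0.171 and 0.314 in the same exact permutation test. No pair passed 0.05 after adjustment, but with 4 arrays a group a lone pair could not fall below an adjusted p of 0.171, and at least 4 of the 6 pairs would have to reach the smallest exact permutation p. The design thus could hardly show a difference, and the unequal changes are a description only.

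**Figure D2:**
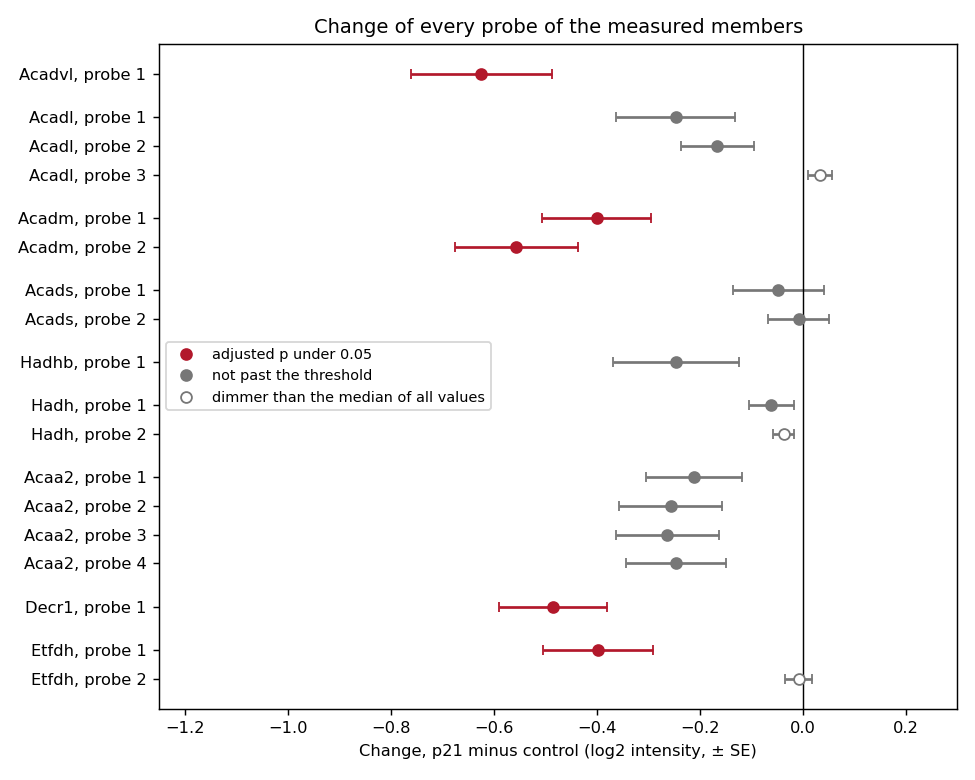
Change of each of the 18 member probes (horizontal axis, p21 minus control in log2 intensity ± SE), grouped by gene and numbered within each gene from brightest to dimmest. Red points passed adjusted p 0.05, grey points did not, and open points lie below the array median. The 5 red points lie between −0.62 and −0.40, and the 3 open points lie within 0.04 of 0.

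Among the enzymes of the later steps, Hadhb, Hadh and Acaa2 did not pass the threshold. Hadhb, the thiolase subunit of the trifunctional protein, read 11.26, 10.83, 11.44 and 11.31 in p21 muscles, against 11.54, 11.37, 11.40 and 11.51 in control muscles. Here 3 p21 arrays lay below all controls, and the change was −0.25 ± 0.12 (adjusted p = 0.265, exact permutation p = 0.0857). Without p21 replicate 2, by far its lowest array, the change was −0.12.

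Hadh, the short-chain hydroxyacyl-CoA dehydrogenase, was read only by dim probes. The brighter had 8.40, 8.43, 8.38 and 8.44 in p21 muscles, against 8.58, 8.38, 8.46 and 8.48 in control muscles, and changed by −0.06 ± 0.04 (adjusted p = 0.471). The groups overlapped, in a range within 0.5 of the floor of the scale. The other probe changed by −0.04 ± 0.02 without overlap of the groups (adjusted p = 0.325), but both of its group means lay under the array median. On a background-subtracted scale these changes were −0.23 and −0.27 and still not called, so the array says little about Hadh in either direction.

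Acaa2, the thiolase of medium and long chains in the matrix, was measured by 4 probes with similar changes. The brightest read 11.41, 11.37, 11.43 and 11.31 in p21 muscles, against 11.65, 11.68, 11.36 and 11.69 in control muscles. The single control array among the p21 values was replicate 3, and the change was −0.21 ± 0.09 (adjusted p = 0.204). The other Acaa2 probes changed by −0.26, −0.26 and −0.25 with adjusted p between 0.135 and 0.152, and none of the 4 was called.

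Decr1, the dienoyl-CoA reductase that prepares polyunsaturated chains for further rounds, was called lower. It read 9.75, 9.24, 9.74 and 9.57 in p21 muscles, against 10.04, 10.12, 10.01 and 10.06 in control muscles. The control arrays spanned a narrow range and all p21 arrays lay below it, with means of 9.57 ± 0.24 in p21 muscles and 10.06 ± 0.05 in control muscles (SD, n = 4 each). The change was −0.49 ± 0.11 or 1.40-fold lower (adjusted p = 0.0224, exact permutation p = 0.0286). It was −0.37 without p21 replicate 2, with an adjusted p of 0.0098, and the call was lost without p21 replicate 4 or control replicate 1 or 2 (adjusted p 0.0790, 0.0619 and 0.0683).

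Etfdh, which passes the electrons to ubiquinone, read 11.09, 10.69, 10.96 and 10.82 in p21 muscles, against 11.44, 11.37, 11.13 and 11.22 in control muscles. The highest p21 array lay just under the lowest control array, and the change was −0.40 ± 0.11 or 1.32-fold lower (adjusted p = 0.0439, exact permutation p = 0.0286). This call was the least stable, since it held only without p21 replicate 1 among the 8 fits with 1 array left out, and the others gave adjusted p from 0.0552 to 0.130. The dim Etfdh probe changed by −0.01 ± 0.03, and with both probes averaged the gene missed the threshold (−0.20, adjusted p = 0.0811).

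**Figure D3:**
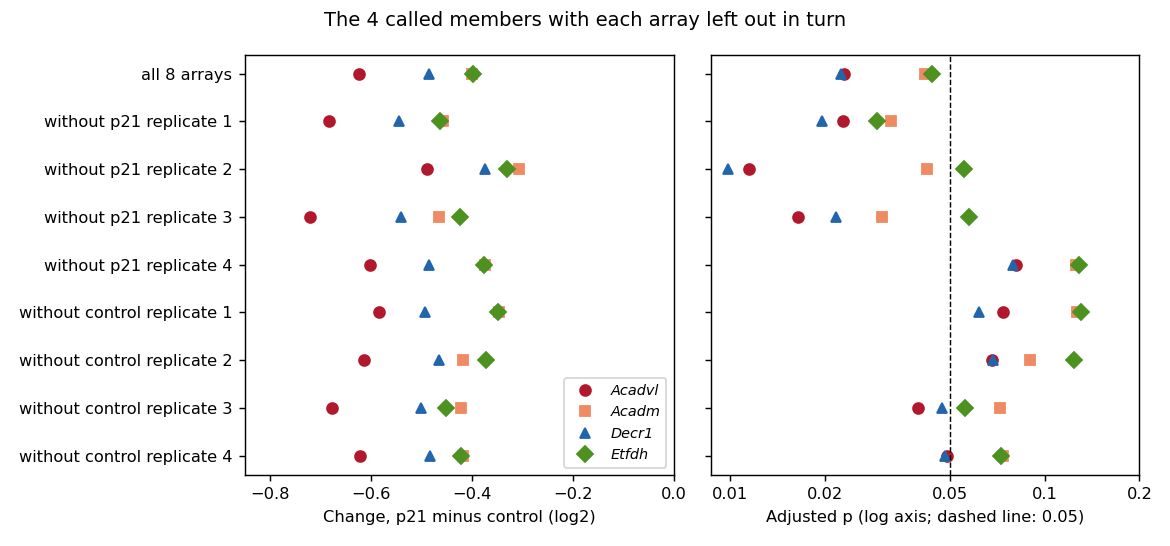
Change (left, log2, p21 minus control) and limma adjusted p (right, log axis, dashed line at 0.05) of Acadvl, Acadm, Decr1 and Etfdh, with all 8 arrays in the top row and with each array left out in the rows under it. The changes stay between −0.72 and −0.31, while adjusted p passes 0.05 for all 4 genes without p21 replicate 4 or control replicate 1 or 2.

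The 4 called members varied together from muscle to muscle as well as between the groups. Over the 8 arrays, with the group difference included, 18 of the 36 pairs of members had a Pearson r over 0.7 and 1 had an r under 0. Among the 4 called genes r was 0.93 to 0.98, and after removal of the group means it was 0.77 to 0.95. Over all 36 pairs, r after that removal ran from −0.55 (Acads with Hadh) to 0.95 (Acadvl with Acadm). Acads and Hadh followed the others least. The mean of the 9 members, each centred over the arrays, was −0.03, −0.36, −0.04 and −0.18 in p21 replicates 1 to 4, against 0.25, 0.15, 0.05 and 0.15 in control replicates 1 to 4. Replicate 2 was thus lowest of the p21 muscles, and control replicate 1 was the highest of all. These correlations share the arrays, the group difference and the normalization, and are given as a description.

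Outside the list, the genes whose brightest probes followed this mean most closely over the 8 arrays were Clpx, a subunit of a mitochondrial matrix protease (r = 0.997), Fgf1, a fibroblast growth factor (0.996), Drap1, a transcriptional corepressor (0.995), Vdac3, a channel of the outer mitochondrial membrane (0.995), and Pxmp2, a peroxisomal membrane protein (0.995). Their changes were −0.25 ± 0.08 for Clpx, which was not called (adjusted p = 0.0822), −0.43 ± 0.11 for Fgf1, −0.31 ± 0.08 for Drap1, −0.53 ± 0.13 for Vdac3 and −0.66 ± 0.14 for Pxmp2. A high r was common, since 1069 of 8918 genes compared, or 12.0%, had an r over 0.9.

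Among all genes 4.79% were called lower and 4.24% higher. Of 19 other measured matrix enzymes that handle acyl-CoA, 7 were called lower and 0 higher (14 lower and 0 higher at unadjusted p under 0.05), with a median of −0.26. Of those 7, 3 act on fatty acyl chains, namely the enoyl-CoA hydratase Echs1 (−0.41 ± 0.10), the enoyl-CoA isomerase Eci2 (−0.36 ± 0.09) and the thioesterase Acot13 (−0.44 ± 0.11). The other 4 belong to propionate and branched-chain amino acid breakdown, and these had the smallest p. They were the propionyl-CoA carboxylase subunits Pccb (−0.45 ± 0.07, adjusted p = 0.0106) and Pcca (−0.48 ± 0.08, adjusted p = 0.0126), isovaleryl-CoA dehydrogenase Ivd (−0.50 ± 0.11, adjusted p = 0.0259) and isobutyryl-CoA dehydrogenase Acad8 (−0.24 ± 0.06, adjusted p = 0.0304). Etfa and Etfb, the flavoprotein subunits that deliver electrons to Etfdh, had changes of −0.16 ± 0.07 and −0.30 ± 0.08 and missed the threshold (adjusted p = 0.199 and 0.0507). The number called lower was 2, 2, 4 and 3 without control replicates 1, 2, 3 and 4 and 1 without p21 replicate 4.

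Of 16 measured genes for fatty acid uptake, activation and carnitine transfer, 5 were called lower and 1 higher. Among all genes 4.79% were called lower and 4.24% higher, and among the brighter ones 8.75% and 7.72%. Crat, the carnitine acetyltransferase, read 11.07, 10.23, 11.06 and 10.80 in p21 muscles, against 11.67, 11.62, 11.54 and 11.50 in control muscles. Every p21 array lay below the controls, and its change of −0.79 ± 0.16 or 1.73-fold lower exceeded that of any member in size (adjusted p = 0.0183). Slc27a1, a fatty acid transporter, Slc22a5, the carnitine transporter, and Cpt2, the inner carnitine palmitoyltransferase, were also lower, by 1.5-fold, 1.27-fold and 1.32-fold (adjusted p = 0.010, 0.0209 and 0.0353). Cpt1b, another carnitine palmitoyltransferase and brighter than the array median, showed little difference (0.02 ± 0.06, adjusted p = 0.915). Acsl5, an acyl-CoA synthetase, was the gene called higher (0.56 ± 0.15, adjusted p = 0.0438), a call lost without p21 replicate 3 or 4, without any single control array and without the intensity trend. The median of the list was −0.08, or −0.34 over its 13 genes brighter than the array median. Without control replicates 1, 2 and 3 the list had 1, 1 and 3 genes called lower, and without p21 replicate 4 it had 0 (7 with all arrays at unadjusted p under 0.05).

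Of 18 measured genes of peroxisomal beta-oxidation, 2 were called lower, the peroxisomal transporters Abcd3 (−0.38 ± 0.09, adjusted p = 0.0272) and Abcd2 (−0.29 ± 0.08, adjusted p = 0.0412), with a list median of −0.02. This share is 11.1%, where 4.79% of all genes were called lower. Neither transporter was called once p21 replicate 4 or control replicate 1, 2 or 4 was left out. Abcd2 also lost its call without p21 replicate 2 or 3, without control replicate 3 and without the intensity trend. In the tricarboxylic acid cycle, which takes up the acetyl-CoA that beta-oxidation yields, 8 of 16 were called lower, with a list median of −0.34. Of all genes 4.79% were called lower and 4.24% higher. The smallest p among those called lower were of Idh3a (−0.71 ± 0.12), Suclg1 (−0.42 ± 0.09), Sdhc (−0.36 ± 0.08) and Cs (−0.44 ± 0.11). The 1 called higher was Idh3b, an isocitrate dehydrogenase subunit (0.46 ± 0.11). The Idh3b call was lost without p21 replicate 4 and without any single control array. The count of 8 was 1, 1, 3 and 2 without control replicates 1, 2, 3 and 4 and 0 without p21 replicate 4.

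Among 15 measured regulators of these genes, 4 were called lower and 0 higher, with 6 lower and 0 higher at unadjusted p under 0.05. The shares of all genes called were 4.79% lower and 4.24% higher. Esrrb, an estrogen-related receptor, changed by −0.48 ± 0.10 (adjusted p = 0.0213), the retinoid receptor Rxra, the partner of the PPARs, by −0.24 ± 0.06 (0.0286), Ppargc1a, which encodes PGC-1alpha, by −0.32 ± 0.08 (0.0299) and Esrra, another estrogen-related receptor, by −0.51 ± 0.13 (0.0395). Esrra read 11.34, 10.75, 11.28 and 11.04 in p21 muscles, against 11.84, 11.60, 11.56 and 11.47 in control muscles, and the groups did not overlap. Ppara and Ppard were dim, with both group means under the array median, and changed by 0.05 ± 0.03 and 0.02 ± 0.02. The median of the 15 was 0.02. The count of 4 was 0, 0, 2 and 1 without control replicates 1, 2, 3 and 4 and 0 without p21 replicate 4. The same list also held 3 genes that are known PPAR targets and not regulators, set apart after their values were seen, and none of them was called. These were the pyruvate dehydrogenase kinase Pdk4 (−0.63 ± 0.18, adjusted p = 0.0528), the uncoupling protein Ucp3 (−0.39 ± 0.12, adjusted p = 0.0619) and the lipoprotein lipase inhibitor Angptl4 (0.72 ± 0.29, adjusted p = 0.167). With the replicate number as a block, Pdk4 and Ucp3 were called lower and Angptl4 higher.

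**Figure D4:**
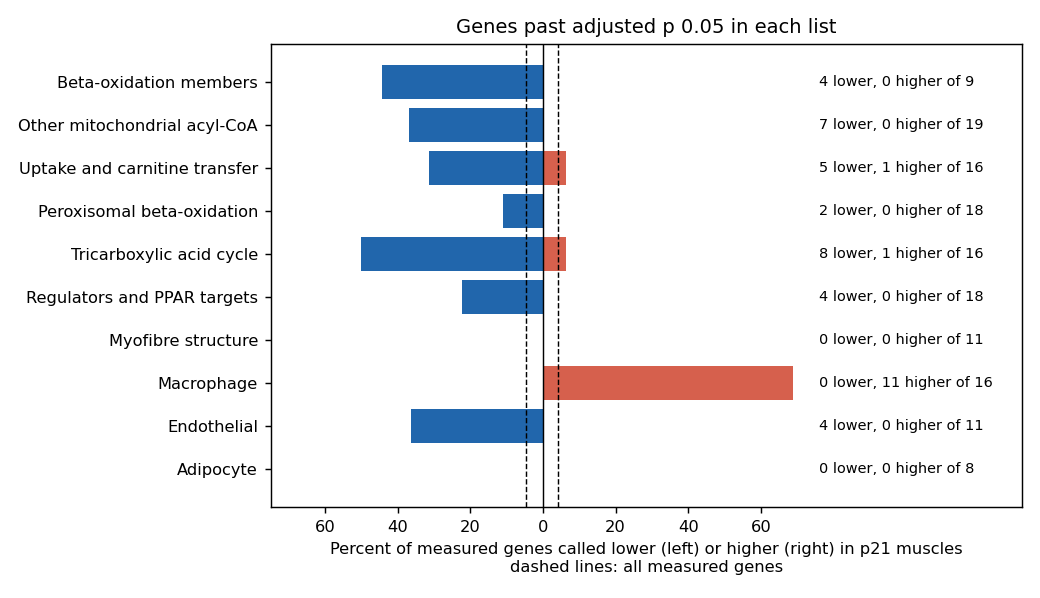
Percent of the measured genes of each list called lower (blue, to the left of 0) or higher (red, to the right) in p21 muscles, with the counts at the right edge. Dashed lines mark the 4.79% called lower and 4.24% called higher among all measured genes. The beta-oxidation members reach 44.4% lower, and the called macrophage markers are all higher.

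Markers of other cells moved in the same muscles. Beside the counts below, 4.79% of all genes were called lower and 4.24% higher, and 8.75% and 7.72% of the brighter ones. Of 16 measured macrophage markers 11 were called higher and 0 lower (0 lower also at unadjusted p under 0.05), and their summed linear intensity was 67050 to 93370 in p21 muscles, against 26381 to 49508 in control muscles. Without p21 replicate 4, 5 were called higher. All 16 had a group mean above the array median in at least 1 group. Of 11 endothelial markers, Tek, Vwf, Egfl7 and Flt1 were called lower (4 genes, −0.60 to −0.33), and their summed intensity was 14335 to 15883 in p21 muscles, against 17544 to 20162 in control muscles. The 4 became 1 without p21 replicate 1, 0 without p21 replicate 4 or control replicate 1, 2 or 4, and 7 with the replicate number as a block. Kdr was the endothelial marker with both group means under the array median. Of 8 adipocyte markers, 0 were called (2 lower at unadjusted p under 0.05), and their summed intensity without Pnpla2 was 2455 to 2756 in p21 muscles, against 2661 to 3067 in control muscles. Pnpla2, a lipase that muscle fibres also express, was set apart because it made up 61.1% to 74.2% of the list's sum in p21 muscles and 72.1% to 75.4% in control muscles. The adipocyte markers Plin1, Fabp4 and Retn were under the array median in both groups, and Cidec, Lep and Lipe lay close to it. The summed intensities of all lists were not background-subtracted here, so such dim probes add mostly background to a sum. Fibroblast and satellite cell markers had 1 of 9 and 1 of 7 called higher, Col3a1, a fibrillar collagen, and Itga7, an integrin that muscle fibres also carry. Both calls were lost without p21 replicate 4 or control replicate 1 or 2, and that of Col3a1 also without control replicate 3. Without p21 replicate 3, 2 satellite cell markers were called higher, Itga7 and Myf5. Myf5, with Pax7 and Calcr, was under the array median in both groups, and its change over all 8 arrays was 0.07 ± 0.03. With the replicate number as a block, 4 fibroblast and 2 satellite cell markers were called higher. None of 8 lymphocyte markers was called (2 were higher at unadjusted p under 0.05), but 4 were called higher with the replicate number as a block and 2 without p21 replicate 2. The lymphocyte markers Cd4, Cd8a and Cd79a were under the array median in both groups.

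Structural genes of the muscle fibre had 0 of 11 called on their brightest probe (2 lower at unadjusted p under 0.05), with a median of −0.06. Their summed intensity was 267010 to 294890 in p21 muscles, against 291430 to 298650 in control muscles, so the groups overlapped. Many of these probes lie near the top of the scale. For Ryr1, the calcium release channel, 2 of 4 probes were called lower, while the brightest missed the threshold (−0.30 ± 0.09, adjusted p = 0.0632). The brightest was called with the replicate number as a block, after removal of dim probes and without p21 replicate 1. The macrophage mean, centred per gene, was 0.28, 0.66, 0.28 and 0.65 in p21 replicates 1 to 4, against −0.88, −0.56, −0.27 and −0.15 in control replicates 1 to 4. The p21 muscles with the highest macrophage mean, replicates 2 and 4, had the lowest member mean, and control replicate 1 had the lowest macrophage mean and the highest member mean. The other controls did not follow this order, since control replicate 4 had the highest macrophage mean of the controls and a member mean above those of control replicates 2 and 3. The fibre structure mean was 0.03, −0.15, 0.02 and −0.04 in p21 replicates 1 to 4, against 0.05, 0.02, 0.02 and 0.05 in control replicates 1 to 4. Its order among the p21 arrays was that of the member mean, and control replicates 1 and 4 were highest in both. The part of the macrophage, endothelial and fibre differences in the member changes was not tested.

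**Figure D5:**
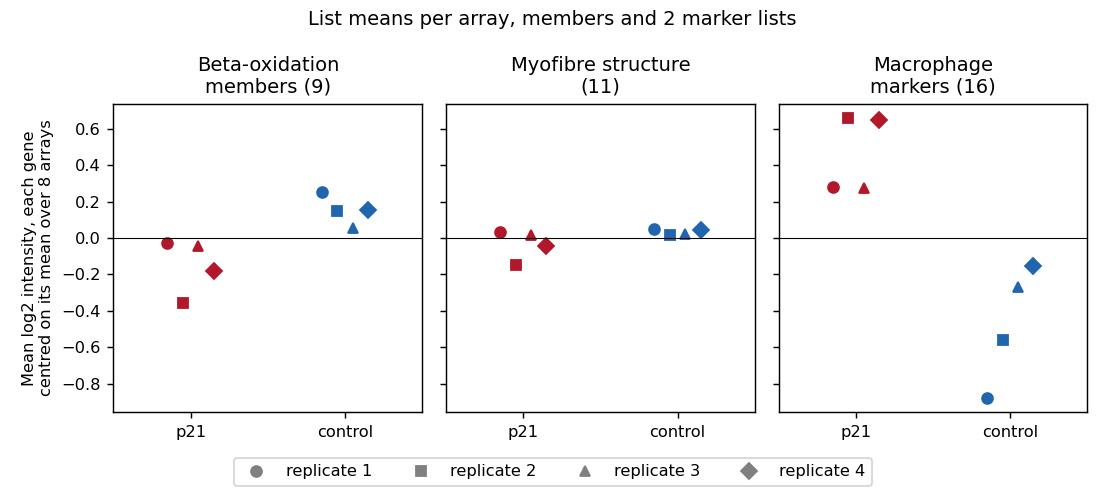
Mean log2 intensity per array of the 9 beta-oxidation members, 11 fibre structure genes and 16 macrophage markers (panels from left to right), each gene centred on its mean over the 8 arrays, with p21 arrays in red on the left and control arrays in blue on the right. The members run from −0.36 to 0.25 with p21 below control, the fibre genes from −0.15 to 0.05 with overlap, and the macrophage markers from −0.88 to 0.66 with p21 above control.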

How the data were processed

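Total RNA was amplified with the Ambion TotalPrep kit and hybridised as biotin-labelled cRNA to Illumina bead arrays, per the labels' protocols. The values were deposited by the authors as log2 intensity for 25697 probes. Which array software, background correction and normalization were used is not given in the sources used here. Sorted values differed by at most 0.00073 between arrays, so the deposited table was already quantile normalized, and it was used unchanged. Platform annotation gave 23978 probes 1 symbol, and 1719 are unnamed here.

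Groups followed the titles. All probes were fitted with limma 3.58.1 in R 4.3.3 (lmFit, eBayes with trend, two-sided, Benjamini-Hochberg over all probes). Single probes also had an exact permutation test over 70 regroupings, unadjusted. The fit was tested on simulated data with independent noise for each probe. That check did not cover probes that vary together across arrays, as many did here. The members, lists and tests were chosen with earlier results of these data known. Named were all members, up to 4 called genes per pathway list with the smallest p, and the 5 genes most correlated with the member mean. Echs1, Eci2, Acot13, Etfa, Etfb, Cpt1b, Ppara, Ppard, Pdk4, Ucp3, Angptl4, Ryr1, Pnpla2, Acsl5, Idh3b, Ckm, Acta1 and the marker genes fall outside that rule and were named for their role or after their values were seen.

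Same-numbered arrays deviated together from their group means (r = 0.483, 0.264, 0.212 and 0.181, all over 0.1). A possible pairing by number was inferred from these correlations alone, since the labels state none. It is uncertain, because 2 p21 arrays correlated more with another number. These were p21 replicate 2 with control replicate 4 (r = 0.297) and p21 replicate 4 with control replicate 3 (r = 0.448). The main fit and the permutation test did not use the pairing, which entered only as a replicate block in an alternative fit. Alternatives were this replicate block, renormalization, median centring, background subtraction with an offset of 16, a filter on dim probes, other eBayes settings, array weights, other thresholds, averaged probes and each array left out. The number of arrays limits the precision.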

Additional observations from a re-analysis of the deposited data

Results flagged for a closer look

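Among 36 groups of 4 arrays (18 member probes, 2 groups each), 4 held an array far from the other 3. Chance flags about 5% of such groups. The brighter Acadm probe read 13.89 in control replicate 1, where the other controls lay between 13.66 and 13.68. The brightest Acaa2 probe read 11.36 in control replicate 3, where the other controls lay between 11.65 and 11.69. Another Acaa2 probe read 11.24 in p21 replicate 3, above 10.94 to 10.98 in the other p21 arrays, and the second Acadl probe read 9.79 there, above 9.64 to 9.66.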

How the results depend on the processing

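The count of member probes called lower was 0 to 5 and that of member genes 0 to 4 with an array left out, and the array-wide count was 159 to 2162. Both member counts were 0 at an adjusted p of 0.01, where 133 probes of the array passed, and at 0.1 the array-wide count was 3490. With the replicate number as a block, the same 4 member genes were called (adjusted p 0.0110 for Acadvl, 0.0147 for Acadm, 0.0123 for Decr1 and 0.0237 for Etfdh), 5 of the 9 genes were lower in every same-numbered pair, and the array-wide count was 3186. Over the 17 alternatives in values, fit or arrays, the change of each gene (brightest probe, or averaged probes) stayed below 0. Several of them could not move it. The replicate block, renormalization, median centring, the dim-probe filter and the other eBayes settings left the change as it was. Only background subtraction, array weights, averaged probes and left-out arrays could move the change. Adjusted p ranged from 0.0110 to 0.0811 for Acadvl, 0.0147 to 0.127 for Acadm, 0.0098 to 0.0790 for Decr1 and 0.0237 to 0.130 for Etfdh. Sign changes occurred in probes with changes near 0: the dimmer Acads probe was 0.010 and 0.0064 without p21 replicates 3 and 4 and 0.0236 without control replicate 4 (range with an array left out −0.0459 to 0.0236), and the dim Etfdh probe was 0.00998 without p21 replicate 2 and 0.00904 without control replicate 3 (range −0.0239 to 0.00998). The cause was not tested. Low signal limits Hadh, whose probes lie near the floor.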
